A study of Homo sapiens with 9 samples.

Results

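From 58387 genes, 98 were selected on their levels in MM1S cells (a human multiple myeloma cell line that is long established) as genes whose RNA was detected while PHF19 was low and was nearly absent otherwise. Levels are given as CPM, the estimated count of a gene divided by the total of its library and multiplied by 1000000. A gene was taken when it lay below 0.5 CPM in all 3 empty vector libraries and both rescue libraries and at 1 CPM or above in all 3 knockdown libraries. These limits were met by 103 genes, and 5 were dropped because their symbols fall in groups set aside by the rule (symbols beginning IG, FCRL, HOX or MT-, together with IL23R, PIGR and APOE).

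All cells were MM1S infected with lentivirus. The shEV libraries came from cells with an empty vector, the PHF19_KD libraries from cells stably expressing an shRNA against PHF19, and the KD_Rescued libraries from knockdown cells given shRNA-resistant PHF19, so both PHF19_KD and KD_Rescued cells carry the knockdown. A further library has conflicting labels: the title says PHF19 knockdown, whereas the shRNA entry is the resistant PHF19 of the rescue. It belongs to no group here, and it is the only library that the selection did not use. The labels do not say that replicates came from separate cultures, and 1 name stem is common to all 3 PHF19_KD libraries, so the spread between libraries may be technical.

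PHF19 binds as an accessory protein to the Polycomb complex PRC2, the enzyme that methylates lysine 27 of histone H3. This mark is found on silent developmental and lineage genes, often at promoters rich in CpG dinucleotides, and PHF19 helps to bring the complex to such DNA. Myeloma is a cancer of plasma cells, and PHF19 is highly expressed in aggressive cases of the disease. Whether any of the 98 genes carried the mark was not measured in these libraries.

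Promoter sequence was not used in the selection, and 4 upstream windows are shown as contrasting examples. DAPK2 and TBX18 had among the larger knockdown values and windows rich in CpG, and ECM2 had a similarly large value and a window without any. The EGR1 window held matches to the CArG box, the core of the serum response element. Whether others lie further upstream was not examined. Each run is the 250 bases before a RefSeq transcript start on GRCh38.p14, written 5′ to 3′ on the strand of the gene. Capitals mark CG dinucleotides in the first 3 and CArG boxes in the fourth. The DAPK2 window is chr15:64046486-64046735 on the minus strand, that of ECM2 is chr9:92535991-92536240 on the minus strand, that of TBX18 is chr6:84764599-84764848 on the minus strand and that of EGR1 is chr5:138465229-138465478 on the plus strand.
DAPK2: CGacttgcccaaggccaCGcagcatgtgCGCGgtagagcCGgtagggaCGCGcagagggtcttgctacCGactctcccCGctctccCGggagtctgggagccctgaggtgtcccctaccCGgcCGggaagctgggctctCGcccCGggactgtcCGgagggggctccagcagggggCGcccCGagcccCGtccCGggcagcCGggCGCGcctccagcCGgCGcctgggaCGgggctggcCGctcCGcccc
ECM2: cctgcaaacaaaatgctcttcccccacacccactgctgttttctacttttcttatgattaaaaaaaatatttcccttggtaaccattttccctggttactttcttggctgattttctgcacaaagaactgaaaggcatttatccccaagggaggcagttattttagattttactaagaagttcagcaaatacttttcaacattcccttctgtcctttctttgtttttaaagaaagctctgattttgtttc
TBX18: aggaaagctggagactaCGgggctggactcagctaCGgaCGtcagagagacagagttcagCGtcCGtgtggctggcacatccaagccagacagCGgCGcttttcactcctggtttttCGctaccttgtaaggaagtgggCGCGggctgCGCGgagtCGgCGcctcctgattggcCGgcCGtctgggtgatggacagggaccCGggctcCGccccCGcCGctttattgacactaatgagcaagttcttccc
EGR1: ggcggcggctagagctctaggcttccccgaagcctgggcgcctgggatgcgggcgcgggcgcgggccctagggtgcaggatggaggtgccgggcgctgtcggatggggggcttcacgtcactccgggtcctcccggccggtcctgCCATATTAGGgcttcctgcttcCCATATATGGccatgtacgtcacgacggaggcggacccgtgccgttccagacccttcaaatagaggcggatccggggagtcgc
The DAPK2 window held 27 CG dinucleotides at a GC content of 76.4%, and that of TBX18 held 20 at 61.6%. The ECM2 window held 0 at a GC content of 36.0%. The EGR1 window held 25 CG dinucleotides at 68.4% and 2 CArG boxes.

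PHF19 itself followed the labels. Its levels were 120, 120 and 103 CPM in the shEV libraries, 26.3, 27.7 and 27.5 CPM in PHF19_KD, 224 and 219 CPM in KD_Rescued, and 63.5 CPM in the library with conflicting labels. The log2 change in PHF19_KD against shEV was -2.11 ± 0.08 (SE, adjusted p = 2.47e-10, edgeR quasi-likelihood test with Benjamini-Hochberg adjustment). Library totals ran from 10164112 to 23751353 estimated counts, and the PHF19_KD libraries, at 10609798 to 12024913, were shallower than the shEV and KD_Rescued libraries. Mitochondrial genes took 9.02% to 10.0% of the counts in PHF19_KD, 2.84% to 3.32% in shEV, 4.99% to 5.18% in KD_Rescued and 5.56% in the library with conflicting labels. The part of this shift in the levels below was not tested. With totals taken without mitochondrial genes the same limits gave 115 genes, of which 92 were among the 98. The shEV and PHF19_KD libraries were sequenced in lane 6 and KD_Rescued in lane 2, so the effects of lane and of rescue cannot be told apart. The library with conflicting labels was also in lane 6. Its name in the labels starts with the same letters as those of PHF19_KD but continues with a different number.

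The 98 genes were low in absolute terms. Summed over the set, they took 18.5, 19.6 and 16.8 CPM in shEV, 203, 194 and 197 CPM in PHF19_KD, and 20.0 and 18.0 CPM in KD_Rescued. Mean levels in PHF19_KD ran from 1.07 to 7.18 CPM with a median of 1.69 CPM. Only 30 genes reached a mean of 2 CPM and 6 a mean of 4 CPM, while 32 stayed below 1.5 CPM. In counts, a gene had 11 to 84 in a PHF19_KD library (median 19). In a shEV or KD_Rescued library the median was 4 counts and the highest value 11.6 counts. CPM does not correct for transcript length, so the order of the genes by CPM is not an order of transcript numbers.

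**Figure D1:**
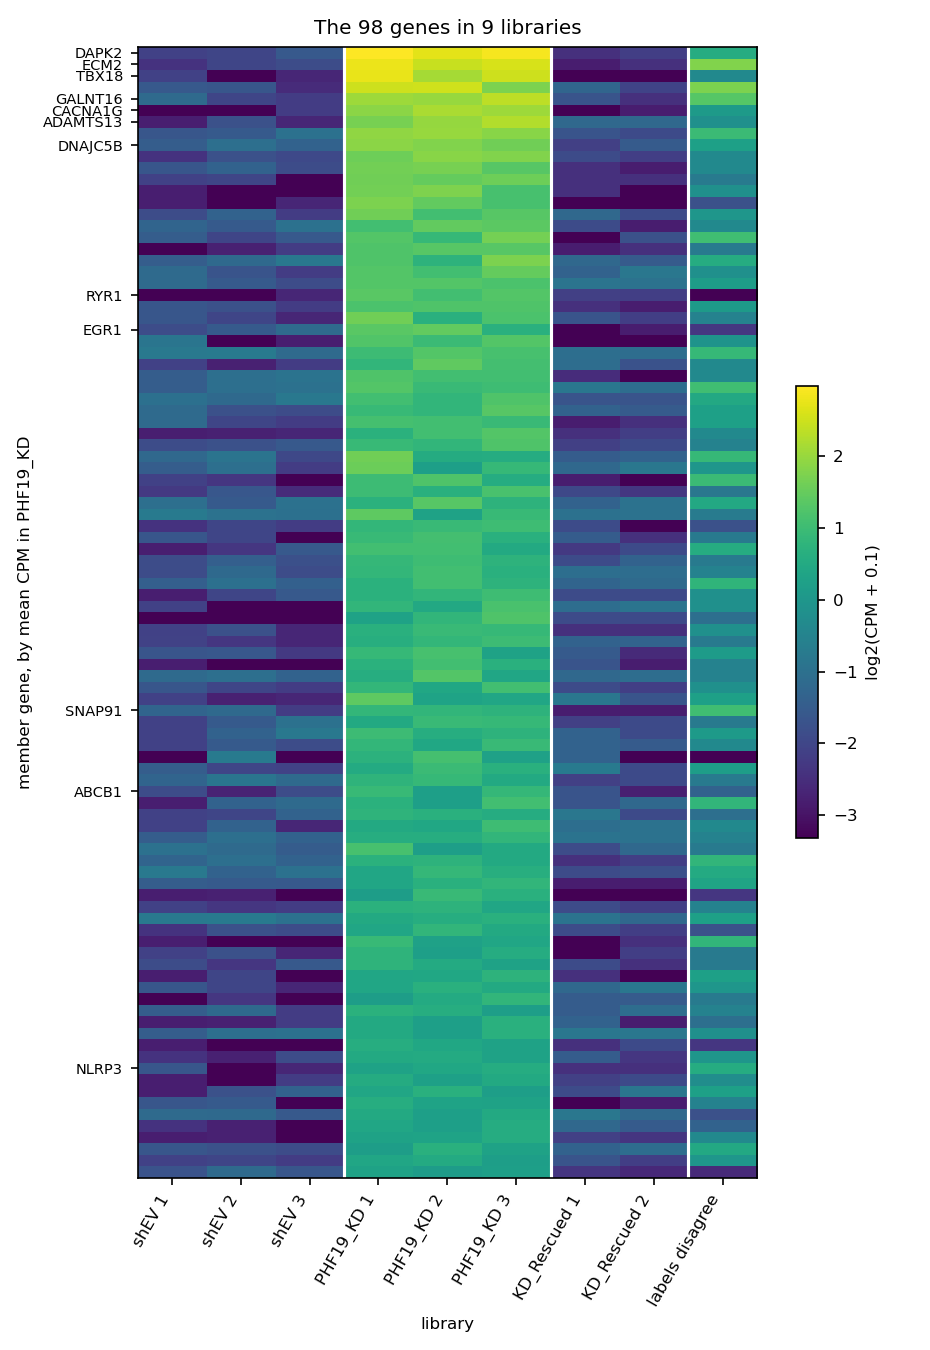
Heat map of log2(CPM + 0.1) for the 98 genes (vertical axis, ordered by mean CPM in PHF19_KD, with 12 named) in the 9 libraries (horizontal axis). The 3 PHF19_KD columns stand above the 5 shEV and KD_Rescued columns in every gene, as the selection requires, and the column of the library with conflicting labels lies between them for 76 genes.

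Several genes lay close to the limits. Just inside the lower limit were NBPF6, AC104653.1, CORO2A, RP11-195F19.9 and NEURL2, whose highest shEV or KD_Rescued values were 0.496, 0.491, 0.491, 0.490 and 0.489 CPM. Just outside it were RP11-1017G21.5, SLC13A3, OASL and KIF26B at 0.505 CPM each and LPAR2 at 0.508 CPM. At the upper limit, CTC-297N7.7, NME5, CRISP3, CACNA1F and CFAP58 had lowest PHF19_KD values from 1.02 to 1.05 CPM. CAPN5, SGK2, AGBL2, GRIK5 and HSD11B1 missed it at 0.998 CPM each. Over the whole set, those near the limits included, the lowest PHF19_KD value was a median of 4.79 times the highest shEV or KD_Rescued value. It was over 4 times that value in 63 genes. The smallest ratio was 2.25, and the limits by themselves fix a minimum for it.

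The selection fixes the direction of every gene between shEV, PHF19_KD and KD_Rescued, so the values in those 8 libraries are descriptions and carry no test. In the edgeR fit over 16600 genes, 34.9% of all genes were called higher in PHF19_KD than in shEV (adjusted p below 0.05), and all 98 were among them. Upper-quartile scaling moved the median of all genes by 0.16 (log2) and the split of all calls from 5793 higher and 5683 lower to 7042 higher and 4573 lower, with all 98 still called higher. For KD_Rescued against PHF19_KD, 29.5% of all genes were called lower, again with all 98 among them. The median log2 change of the 98 was 3.26 for PHF19_KD against shEV and -3.35 for KD_Rescued against PHF19_KD, where all tested genes had medians of 0.03 and 0.03. Nothing is read from these counts, because the rule used the same libraries. In bulk RNA, fewer cells of a type and less RNA per cell cannot be told apart, so a level near 1 CPM may be a low level in all cells or a higher one in a few.

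Of the 98, 83 were matched to the RefSeq gene table, 7 of them under a later symbol. The matched genes were 73 protein-coding genes, 7 long non-coding RNAs, 2 pseudogenes and 1 transcribed pseudogene, and 15 were not matched. A known role could be given for 61, and these were sorted into 9 groups after the genes were known. Among the rest, 37 genes had no role that could be stated safely. Folds given below with an interval, and lower bounds on folds, are ratios of the pooled counts of a group over its pooled totals, not of the group means. Intervals on folds and on the single library with conflicting labels are 95% intervals that cover counting error only.

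Transcription and chromatin factors made up 8 of the genes: TBX18, EGR1, ETV7, ZNF396, ZNF385C, SPOCD1, HIST1H2BN and ANKRD31. TBX18, a T-box factor of the developing heart and urinary tract, was at 0.132, 0 and 0.0589 CPM in shEV and 6.69, 4.24 and 5.495 CPM in PHF19_KD. It had no count in either KD_Rescued library. The PHF19_KD mean was 5.48 ± 1.23 CPM (SD, n = 3). Over pooled counts PHF19_KD was 81.5-fold (95% interval 31.3 to 302) above shEV, and at least 85.7-fold above KD_Rescued taking 3 counts as the floor for that group. The selection required a gap between the groups and 1 CPM or more in every knockdown library, so neither is a result.

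EGR1, an immediate early zinc finger factor induced within minutes by growth factor and stress signals, was at 0.176, 0.245 and 0.353 CPM in shEV and 2.45, 2.66 and 1.48 CPM in PHF19_KD. In KD_Rescued it was at 0 and 0.0421 CPM, below every shEV library. Its value in the library with conflicting labels was 0.0984 CPM (95% interval 0.00249 to 0.548), or 4.48% of the PHF19_KD mean. That library therefore resembled the low groups for EGR1. EGR1 was also lower in KD_Rescued than in shEV in the edgeR fit, where 19.1% of all genes were called lower.

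The remaining factors had PHF19_KD means below 2 CPM. ETV7, a transcriptional repressor of the ETS family, was at 1.32, 1.08 and 1.48 CPM in PHF19_KD and at no more than 0.296 CPM in shEV and KD_Rescued. SPOCD1, a nuclear protein linked to DNA methylation in the male germ line, had 1.51, 1.66 and 1.92 CPM in PHF19_KD, and ANKRD31, which acts in meiotic recombination, had 1.79, 1.66 and 2.27 CPM. HIST1H2BN, a core histone gene, had counts that were not whole in any library, so reads were divided between it and other genes and its value is uncertain. The zinc finger genes ZNF396 and ZNF385C had means of 1.63 ± 0.238 CPM and 1.68 ± 0.183 CPM in PHF19_KD.

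Kinases and signalling proteins gave 4 genes, DAPK2, OPRL1, MAPK10 and ADCY4. DAPK2, a calcium and calmodulin regulated kinase of the death-associated family, was at 0.132, 0.147 and 0.236 CPM in shEV, 7.73, 6.49 and 7.33 CPM in PHF19_KD and 0.0846 and 0.126 CPM in KD_Rescued. Its PHF19_KD mean was 7.18 ± 0.634 CPM (SD, n = 3). Over pooled counts this group was 43-fold (95% interval 22.99 to 90.8) above shEV and 67.8-fold (95% interval 28.7 to 211) above KD_Rescued. Knockdown libraries of DAPK2 agreed within a narrow range, and both KD_Rescued libraries lay below all shEV libraries. In the library with conflicting labels it had 1.38 CPM (95% interval 0.753 to 2.31), above all low libraries and below all knockdown libraries.

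OPRL1, the G protein-coupled receptor for nociceptin, was at 0.308, 0.245 and 0.412 CPM in shEV, 1.98, 2.66 and 2.53 CPM in PHF19_KD and 0.169 and 0.0421 CPM in KD_Rescued. MAPK10, the stress kinase JNK3, had 0 counts in all shEV libraries, 1.13, 1.66 and 2.27 CPM in PHF19_KD and 0.169 and 0.168 CPM in KD_Rescued. PHF19_KD was thus at least 34.1-fold above shEV with the same floor of 3 counts. MAPK10 was the only one of the 98 with 0 counts throughout shEV, and its PHF19_KD libraries differed from each other by over 2 times. ADCY4, an adenylyl cyclase, had a mean of 1.26 ± 0.139 CPM in PHF19_KD.

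Among the ion channels were CACNA1G, RYR1 and CACNA1F. CACNA1G, the pore of a T-type calcium channel, was at 0, 0 and 0.118 CPM in shEV, 3.58, 4.41 and 4.01 CPM in PHF19_KD and 0 and 0.0421 CPM in KD_Rescued. With 2 counts in shEV the ratio was 121-fold (95% interval 32.8 to 1007), and with 1 count in KD_Rescued it was 190.4-fold (95% interval 33.6 to 7575). The wide intervals come from the few counts in the low groups, and the knockdown values themselves were close together.

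RYR1, the calcium release channel of skeletal muscle sarcoplasmic reticulum, was at 0, 0 and 0.0589 CPM in shEV, 2.45, 1.996 and 2.35 CPM in PHF19_KD and 0.127 and 0.126 CPM in KD_Rescued. It was not detected in the library with conflicting labels, where a count of 0 allows up to 0.295 CPM if 3 counts are taken as the limit. Its 95% interval reaches 0.363 CPM, and both bounds lie below every PHF19_KD library. On a list of 13 muscle and heart genes, 3 were tested: RYR1, whose calls the selection fixed, MYH3 and TTN. The embryonic myosin MYH3 and the giant sarcomere protein TTN had log2 changes of 1.99 ± 0.27 and 1.32 ± 0.09 in PHF19_KD against shEV (SE, edgeR adjusted p = 3.77e-05 and 6.13e-08), where 34.9% of all genes were called higher. After rescue they had -0.93 ± 0.28 and -0.83 ± 0.09 (SE), both called lower, as were 29.5% of all genes. The list, RYR1 included, summed to 11.4 to 14.2 CPM in shEV and 34.5 to 37.3 CPM in PHF19_KD. In KD_Rescued the sum was 18.7 to 19.1 CPM. Most of it was TTN, with means of 11.75, 29.9 and 16.9 CPM in shEV, PHF19_KD and KD_Rescued. Of the 13 genes, 9 stayed below 0.5 CPM in all 9 libraries, with MYH6 and DES at 0.

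CACNA1F, an L-type calcium channel of the retina, was at 0, 0.0981 and 0 CPM in shEV, 1.04, 1.33 and 1.66 CPM in PHF19_KD and 0.254 and 0.253 CPM in KD_Rescued, where both rescue values were above all shEV values.

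Membrane carriers and pumps were SLC2A12, SLC29A4 and ABCB1. SLC2A12, a glucose transporter, was at 0.239, 0.219 and 0.0714 CPM in shEV, 5.56, 5.6 and 3.23 CPM in PHF19_KD, 0.314 and 0.141 CPM in KD_Rescued and 3.19 CPM (95% interval 2.15 to 4.45) in the library with conflicting labels. Its counts were not whole in any library, and it overlaps TBPL1, so part of its reads is uncertain. TBPL1 was at 12.2 ± 0.689 CPM (SD, n = 3) in shEV and 11.4 ± 0.878 CPM (SD, n = 3) in PHF19_KD, a difference that was not called (edgeR adjusted p = 0.197). Among 19 sugar and organic ion carriers listed together with SLC2A12, 13 were tested, 6 were called higher in PHF19_KD and 4 lower, SLC2A12 itself being 1 of the 6. Of all genes, 34.9% were called higher and 34.2% lower.

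ABCB1, the drug efflux pump P-glycoprotein, was at 0.176, 0.0537 and 0.177 CPM in shEV, 1.79, 1.08 and 1.73 CPM in PHF19_KD, 0.211 and 0.04701 CPM in KD_Rescued and 0.295 CPM in the library with conflicting labels. It overlaps RUNDC3B, which itself rose from 1.36 ± 0.448 to 5.65 ± 1.19 CPM (SD, n = 3 and 3, log2 change 2.03 ± 0.25 SE, edgeR adjusted p = 1.54e-05). The counts of ABCB1 were not whole in 3 libraries, and whether it shared reads with RUNDC3B was not tested. SLC29A4, a monoamine and nucleoside carrier, had 1.99, 1.996 and 1.31 CPM in PHF19_KD and 1.38 CPM in the library with conflicting labels.

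**Figure D2:**
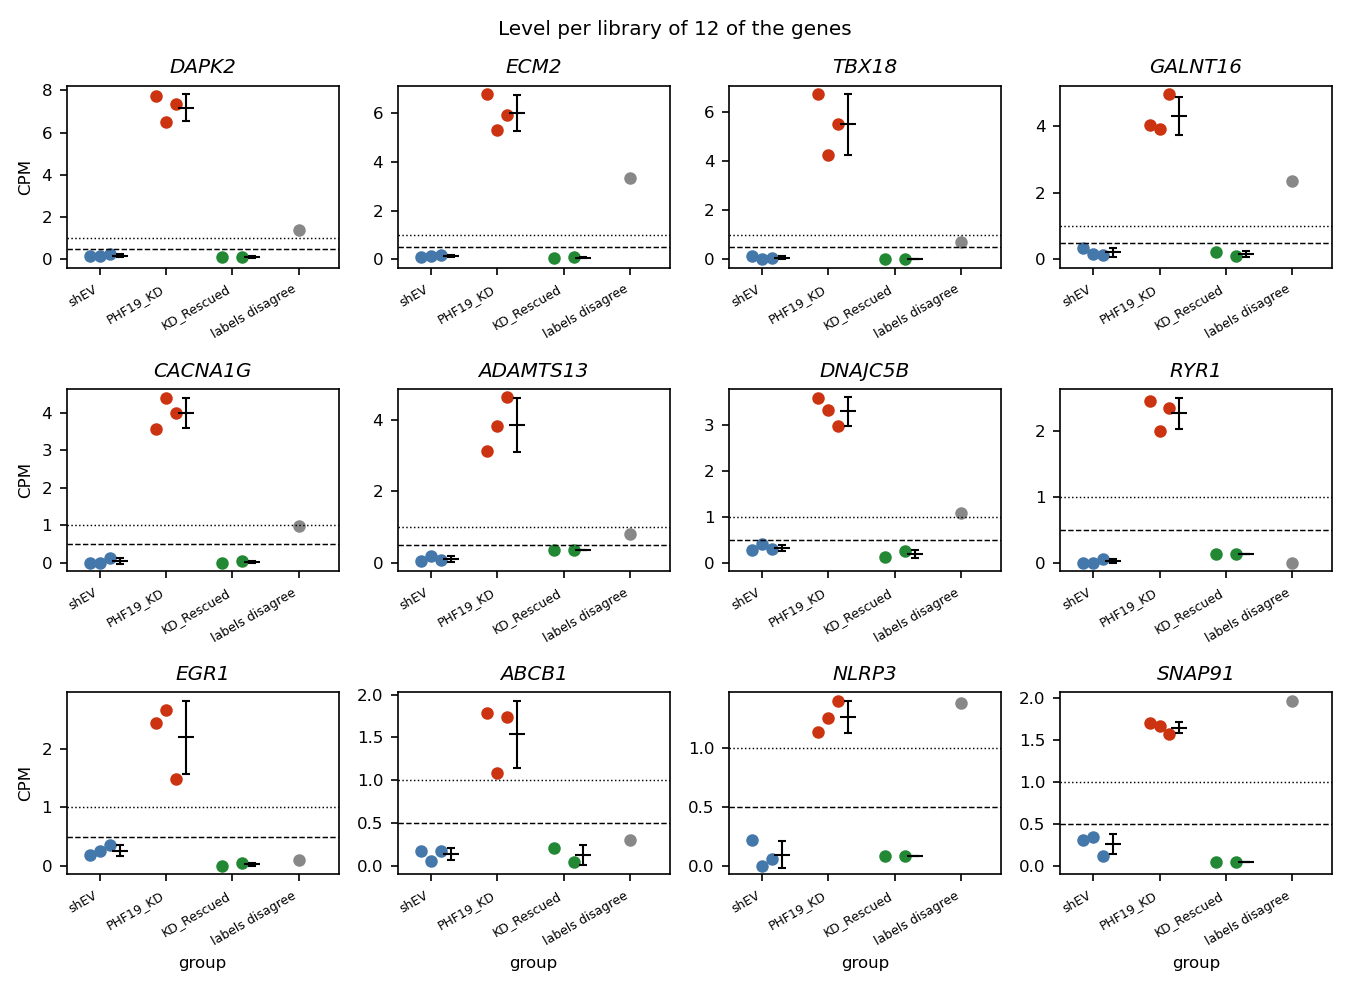
Levels of 12 of the genes in CPM (vertical axes, linear, each with its own range) by library group (horizontal axes), where a dot is a library and a bar the group mean ± SD. Dashed and dotted lines mark the limits of 0.5 and 1 CPM; EGR1 and RYR1 lie in the range of the low libraries in the library with conflicting labels, while NLRP3 and SNAP91 are at 1.38 and 1.97 CPM there.

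Vesicle traffic proteins numbered 5, and several are best known from nerve endings or secretory granules. DNAJC5B, a cysteine string protein, was at 0.264, 0.393 and 0.295 CPM in shEV, 3.58, 3.33 and 2.96 CPM in PHF19_KD and 0.127 and 0.253 CPM in KD_Rescued. DNM1, the dynamin that pinches off endocytic vesicles in neurons, was at 0.398, 0.344 and 0.471 CPM in shEV, 1.98, 1.66 and 2.27 CPM in PHF19_KD and 0.212 and 0.211 CPM in KD_Rescued, and it overlaps the expressed gene CIZ1. SNAP91, a clathrin assembly protein, was at 0.308, 0.343 and 0.118 CPM in shEV, 1.697, 1.66 and 1.57 CPM in PHF19_KD and 0.0423 and 0.0421 CPM in KD_Rescued. Its level of 1.97 CPM (95% interval 1.202 to 3.04) in the library with conflicting labels was above every PHF19_KD library, although the interval includes all of them. SV2B, a synaptic vesicle membrane protein, and UNC13D, which releases cytotoxic granules, had means of 1.65 ± 0.382 CPM and 1.44 ± 0.1899 CPM in PHF19_KD.

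None of the 13 listed neuronal and glial genes was among the 98. Of these 13, 7 stayed below 0.5 CPM in all 9 libraries and 6 were tested. In PHF19_KD 4 were called higher, against 34.9% of all genes (2 with DESeq2, against 30.5%). SYT1 and MAP2 had log2 changes of 1.34 ± 0.07 and 0.79 ± 0.11 (SE, edgeR adjusted p = 3.83e-09 and 3.81e-05). After rescue 3 were called lower, against 29.5% of all genes, and TUBB3, called higher in PHF19_KD, was not. The summed level of the list, mostly SYT1, MBP and MAP2, was 52.5 to 54.4 CPM in shEV and 88.6 to 95.3 CPM in PHF19_KD. It was 52.7 to 55.7 CPM in KD_Rescued, and SNAP25 was at 0 in all libraries. Plasma cell and myeloma markers were detected, with 12 of 12 tested. In PHF19_KD 4 were called higher and 5 lower, against 34.9% and 34.2% of all genes. CCND2, a cyclin, and TNFRSF17, the receptor BCMA, fell by 2.02 ± 0.05 and 1.07 ± 0.05 (log2, SE, edgeR adjusted p = 8.80e-12 and 2.89e-09). MAF, a myeloma transcription factor, and CD38, a plasma cell surface enzyme, rose by 1.17 ± 0.05 and 1.16 ± 0.04 (log2, SE, edgeR adjusted p = 9.04e-10 and 1.69e-10).

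Matrix and secreted proteins were the second largest group, with 11 genes. ECM2, an extracellular matrix glycoprotein, was at 0.08795, 0.147 and 0.177 CPM in shEV, 6.79, 5.32 and 5.93 CPM in PHF19_KD and 0.0423 and 0.0842 CPM in KD_Rescued. The PHF19_KD mean was 6.01 ± 0.735 CPM (SD, n = 3), and over pooled counts this group was 44.9-fold (95% interval 22.4 to 106) above shEV. ECM2 lies opposite CENPP, a centromere protein gene, which was at 22.0 ± 1.29 CPM in shEV and 7.74 ± 0.707 CPM in PHF19_KD (SD, n = 3 and 3, log2 change -1.54 ± 0.09 SE, edgeR adjusted p = 1.71e-08). The overlap is one of gene spans, introns included, and ECM2 counts were whole in every library. Whether reads of the overlapping stretches were shared was not tested.

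ADAMTS13, the protease that cleaves von Willebrand factor, was at 0.04398, 0.196 and 0.0589 CPM in shEV, 3.11, 3.83 and 4.62 CPM in PHF19_KD and 0.338 and 0.337 CPM in KD_Rescued. Both rescue values exceeded all shEV values. ADAMTS7, a related protease that acts on cartilage matrix, was at 0.352, 0.147 and 0.118 CPM in shEV, 2.06, 1.996 and 1.83 CPM in PHF19_KD and 0.0423 and 0.0842 CPM in KD_Rescued. It overlaps MORF4L1, which fell from 204 ± 14.3 to 101 ± 1.57 CPM (SD, n = 3 and 3, edgeR adjusted p = 1.98e-09).

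SCUBE1, a secreted and cell surface glycoprotein, was at 0.04398, 0 and 0 CPM in shEV, 3.02, 3.24 and 2.09 CPM in PHF19_KD and 0.0846 and 0 CPM in KD_Rescued. On a single shEV count the ratio was 167-fold (95% interval 29.3 to 6682). HMCN1, the basement membrane protein hemicentin, was at 0.2199, 0.196 and 0.118 CPM in shEV, 2.17, 2.25 and 2.27 CPM in PHF19_KD and 0.0846 and 0.0421 CPM in KD_Rescued. The HMCN1 knockdown libraries were nearly equal.

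On a list of 23 complement and acute phase genes, 11 were tested, 9 were called higher and 1 lower in PHF19_KD, and 10 were called lower after rescue. Both counts include 1 of the 98, whose calls the selection fixed. Of all genes, 34.9% were called higher and 34.2% lower in PHF19_KD, and 29.5% lower after rescue. AZGP1 and CLU, a secreted glycoprotein and a chaperone that also inhibits complement, had log2 changes of 5.71 ± 0.23 and 2.63 ± 0.06 against shEV (SE, edgeR adjusted p = 6.39e-10 and 4.45e-12). The complement inhibitor CD59 had -0.30 ± 0.04 (SE, edgeR adjusted p = 3.53e-05).

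Of the other secreted proteins, LCN10, a lipocalin, was at 0.04398, 0 and 0 CPM in shEV, 1.79, 1.12 and 1.22 CPM in PHF19_KD, 0 and 0.0842 CPM in KD_Rescued and 1.67 CPM (95% interval 0.974 to 2.68) in the library with conflicting labels. CRISP3, a cysteine-rich secretory protein, was at 1.04, 1.83 and 1.48 CPM in PHF19_KD, had no count in KD_Rescued and was at 0.0984 CPM in the library with conflicting labels. LCN10 and CRISP3 therefore parted in the library that the selection did not use. The fibrillar collagen COL11A2, the proteoglycan SPOCK2 and the semaphorin SEMA3B had PHF19_KD means of 1.495 ± 0.369 CPM, 1.64 ± 0.781 CPM and 1.23 ± 0.157 CPM.

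The list of fibroblast markers, which are not among the 98, summed to 2.68 to 2.80 CPM in shEV, 10.4 to 11.1 CPM in PHF19_KD and 5.98 to 11.5 CPM in KD_Rescued. Of its 12 genes, 9 stayed below 0.5 CPM in all 9 libraries, with LUM, PDGFRA, THY1 and POSTN at 0. Only 3 were tested, where 34.9% of all genes were called higher in PHF19_KD and 29.5% lower after rescue. COL1A1 and PDGFRB were called higher in PHF19_KD, with log2 changes of 2.15 ± 0.31 and 1.91 ± 0.19 (SE, edgeR adjusted p = 5.99e-05 and 2.42e-06), and both were called lower after rescue, with -2.74 ± 0.37 and -3.15 ± 0.24 (SE, edgeR adjusted p = 3.79e-05 and 2.89e-07). Most of the KD_Rescued sum was COL6A3, a collagen chain, at 7.35 ± 4.26 CPM (SD, n = 2) against 0.0845 ± 0.0832 CPM (SD, n = 3) in PHF19_KD. The part of any other cell type in the levels of the matrix genes was not tested.

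Enzymes of small molecules, peptides and glycans gave 6 genes. GALNT16, which starts mucin-type O-linked glycans, was at 0.352, 0.147 and 0.118 CPM in shEV, 4.05, 3.91 and 4.97 CPM in PHF19_KD, 0.211 and 0.0842 CPM in KD_Rescued and 2.36 CPM (95% interval 1.51 to 3.51) in the library with conflicting labels. UPB1, an enzyme of pyrimidine breakdown, was at 0.132, 0.147 and 0 CPM in shEV, 2.93, 2.69 and 2.87 CPM in PHF19_KD and 0.0846 and 0.0842 CPM in KD_Rescued. DPEP2, a membrane dipeptidase, was at 0, 0.0491 and 0.118 CPM in shEV, 2.26, 2.41 and 2.44 CPM in PHF19_KD and 0.0423 and 0.0842 CPM in KD_Rescued. For each of the 3 enzymes the knockdown values lay several times above the shEV and rescue values, which the selection in part requires. DDO (D-aspartate oxidase), ALDH1L1 (a folate enzyme) and SDR42E2 (a short-chain dehydrogenase) had means of 1.81 ± 0.112 CPM, 1.66 ± 0.289 CPM and 2.04 ± 0.282 CPM, and in the library with conflicting labels they stood at 10.8%, 35.5% and 96.7% of those means.

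Innate immune and surface proteins were TRIM31, PLXNB3, FCER1G, SMIM1, NLRP3 and PROM1. TRIM31, a ubiquitin ligase, was at 0.08795, 0.196 and 0.162 CPM in shEV, 2.904, 3.48 and 3.33 CPM in PHF19_KD, 0.169 and 0.126 CPM in KD_Rescued and 0.689 CPM in the library with conflicting labels. NLRP3, the sensor of the inflammasome, was at 0.2199, 0 and 0.0589 CPM in shEV, 1.13, 1.25 and 1.396 CPM in PHF19_KD, 0.0846 and 0.0842 CPM in KD_Rescued and 1.38 CPM (95% interval 0.753 to 2.31) in the library with conflicting labels. FCER1G, the signalling chain shared by several Fc receptors, was at 0.04398, 0.294 and 0.353 CPM in shEV, 1.51, 1.08 and 2.01 CPM in PHF19_KD, 0.211 and 0.337 CPM in KD_Rescued and 1.67 CPM (95% interval 0.974 to 2.68) in that library. NLRP3 and FCER1G were thus inside the knockdown range in the unused library, and TRIM31 was well below it.

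NLRP3 and FCER1G are typical of myeloid cells. The list of monocyte and granulocyte markers summed to 20.4 to 22.7 CPM in shEV and 26.9 to 31.8 CPM in PHF19_KD. It summed to 9.97 to 10.7 CPM in KD_Rescued and 33.8 CPM in the library with conflicting labels. Most of each sum was CD68, with means of 20.2 CPM in shEV, 26.8 CPM in PHF19_KD and 9.39 CPM in KD_Rescued. In the library with conflicting labels CD68 was at 30.8 CPM. Of the 14 listed genes, 12 stayed below 0.5 CPM in all 9 libraries and FCGR3A, S100A8 and ELANE were at 0. The tested pair, the integrin ITGAM and the lysosomal protein CD68, had log2 changes of 2.14 ± 0.27 and 0.37 ± 0.09 in PHF19_KD (SE, edgeR adjusted p = 1.80e-05 and 0.00246) and -2.07 ± 0.30 and -1.52 ± 0.10 after rescue (SE, edgeR adjusted p = 6.97e-05 and 9.93e-08). Both were called in each comparison, where 34.9% of all genes were called higher in PHF19_KD and 29.5% lower after rescue. The part of myeloid cells in the levels of NLRP3 and FCER1G was not tested. None of the 36 listed interferon-stimulated genes was among the 98, which are only 0.168% of all genes, so nothing is read from this. OASL of that list missed the lower limit at 0.505 CPM. Of 31 tested, 28 were called higher in PHF19_KD and 2 lower, against 34.9% and 34.2% of all genes.

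PLXNB3, a semaphorin receptor, was at 0.132, 0 and 0 CPM in shEV, 1.66, 1.28 and 2.15 CPM in PHF19_KD and 0.371 and 0.439 CPM in KD_Rescued, so that both rescue values lay above shEV. SMIM1, which carries the Vel blood group, was at 0.264, 0.245 and 0.236 CPM in shEV, 1.23, 1.497 and 1.66 CPM in PHF19_KD and 0.0423 and 0.0421 CPM in KD_Rescued, with both rescue values below shEV. The stem cell surface protein PROM1 had a mean of 1.23 ± 0.144 CPM in PHF19_KD.

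Motors, cilia and cytoskeleton were the largest group, with 14 genes. MYO15A, the unconventional myosin of inner ear hair cells, was at 0.2199, 0.245 and 0.412 CPM in shEV, 3.68, 3.91 and 3.49 CPM in PHF19_KD, 0.211 and 0.168 CPM in KD_Rescued and 1.87 CPM (95% interval 1.12 to 2.92) in the library with conflicting labels. Its relative MYO15B was at 0.04398, 0 and 0 CPM in shEV, 1.41, 1.25 and 1.13 CPM in PHF19_KD, 0.0846 and 0.168 CPM in KD_Rescued and 0.0984 CPM there. In the unused library, then, MYO15A kept a level above all low libraries and MYO15B did not.

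DNAH2, a heavy chain of ciliary dynein, was at 0.2199, 0.294 and 0.177 CPM in shEV, 3.02, 3.08 and 2.44 CPM in PHF19_KD and 0.0846 and 0.0421 CPM in KD_Rescued. ESPNL, an espin-like protein of hair cell bundles, was at 0.04398, 0 and 0.0589 CPM in shEV and 3.21, 2.66 and 2.09 CPM in PHF19_KD, with 0 counts in KD_Rescued, a level at least 41.7-fold lower. SYNPO, the actin-binding protein synaptopodin, was at 0.176, 0.294 and 0.118 CPM in shEV, 2.92, 1.996 and 2.44 CPM in PHF19_KD and 0.338 and 0.168 CPM in KD_Rescued. CORO2A, a coronin, was at 0.484, 0.491 and 0.353 CPM in shEV, close to the lower limit, and 1.89, 2.33 and 2.09 CPM in PHF19_KD.

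The cilia genes CFAP58, NME5 and EFHC2 had PHF19_KD means of 1.201 ± 0.143 CPM, 1.22 ± 0.242 CPM and 1.498 ± 0.103 CPM. In the library with conflicting labels they stood at 73.7%, 105% and 26.3% of those means, so genes of related function spread widely. MYH7B, a slow muscle myosin, ranged over 2.83, 1.08 and 1.74 CPM in PHF19_KD and was one of 6 genes whose knockdown libraries differed by more than 2 times, with RP11-799D4.4, RP11-545I5.3, NEURL2, MAPK10 and SPOCK2. The actin and septin genes ABLIM3, SEPT4, MTSS1L and PHLDB1 had means of 1.35 ± 0.193 CPM, 1.34 ± 0.139 CPM, 1.24 ± 0.154 CPM and 1.63 ± 0.273 CPM.

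The 37 genes without a stated role had PHF19_KD means from 1.07 to 2.37 CPM. They include the antisense or divergent RNAs A2M-AS1, BRWD1-AS2, DNAJC27-AS1, STX17-AS1, HLA-F-AS1 and ABHD11-AS1, the protein-coding genes AIM1, FAM131C, NEURL2, TMEM178A, SAMD14, ANKRD34A, NBPF6, LRRC63, TTC34, ANKRD24 and CYSRT1, and the pseudogenes TLE1P1 and CEACAMP3. LINC01521, MGC16275, GS1-259H13.2, AC034220.3, AC104653.1 and 12 clone-based names make up the remainder: RP11-799D4.4, RP1-179N16.6, RP11-248G5.8, RP3-510D11.2, RP11-545I5.3, RP11-758H9.2, RP11-266L9.8, RP11-195F19.9, RP11-427L15.2, RP11-46C24.7, RP11-140I16.3 and CTC-559E9.1, with CTC-297N7.7 besides. AIM1, a non-lens crystallin relative that binds actin, was at 0.352, 0.212 and 0.118 CPM in shEV, 2.36, 1.99 and 2.69 CPM in PHF19_KD and 0.296 and 0.463 CPM in KD_Rescued. A2M-AS1 was at 0.352, 0.245 and 0.177 CPM, 2.36, 2.32 and 2.18 CPM and 0.438 and 0.421 CPM in the same groups. HLA-F-AS1 lies opposite HLA-F, which rose from 33.8 ± 1.12 to 118 ± 5.25 CPM (SD, n = 3 and 3, edgeR adjusted p = 7.53e-11), and its counts were not whole in any library, so its own level is uncertain.

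Sharing of reads may bear on many of these values. The strand setting of the counting is not known here, so some reads of overlapping genes may not be told apart. In 37 of the 98, counts were not whole in at least 1 library within a tolerance of 0.01, and in 7 they were not whole in any of the 9. In addition 22 genes overlap a gene at 1 CPM or more in PHF19_KD on the GENCODE 29 annotation. The overlap was taken over whole gene spans, introns included, and shared exons were not examined. Of the 23 overlapped genes 11 were called higher and 5 lower in PHF19_KD (13 and 2 with upper-quartile scaling). The shares over all genes were 34.9% and 34.2% (42.4% and 27.6% with upper-quartile scaling). NEURL2, for example, lies opposite CTSA, a lysosomal carboxypeptidase gene, which was at 117 ± 10.8 CPM in shEV and 228 ± 2.05 CPM in PHF19_KD (SD, n = 3 and 3, edgeR adjusted p = 1.40e-07). Of the 98, 53 had whole counts throughout and no expressed overlap, among them DAPK2, TBX18, GALNT16, CACNA1G, EGR1, RYR1 and NLRP3.

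The rescue brought all 98 below 0.5 CPM by selection, but it left room for differences below that limit. The KD_Rescued mean was below the shEV mean in 49 genes and above it in 49. Both rescue libraries lay below all shEV libraries in 18 genes and above all of them in 21. The share of all genes with such an order was not counted. With a median of 4 counts in such a library, nothing is read from it. In the edgeR fit 20.7% of all genes were called higher in KD_Rescued than in shEV, and 5 of the 98 were among them: SEMA3B, MAPK10, ADAMTS13, CACNA1F and PLXNB3. A further 7 were called lower, namely SMIM1, FAM131C, EGR1, SNAP91, ABHD11-AS1, DNAH2 and CTC-297N7.7, against 19.1% of all genes. The limit of the selection caps both groups at 0.5 CPM, so these counts are descriptions. Some of these genes overlap expressed genes in their gene spans, introns included. ADAMTS13, MAPK10 and ABHD11-AS1 had whole counts in every library, and whether reads were shared was not tested. ADAMTS13 overlaps REXO4, at 29.1 CPM in shEV and 39.9 CPM in KD_Rescued. MAPK10 overlaps ARHGAP24 (0.524 and 1.56 CPM) and PTPN13 (17.4 and 17.2 CPM), and ABHD11-AS1 overlaps ABHD11 (18.3 and 22.6 CPM).

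The library with conflicting labels, where PHF19 stood at 55.6% of the shEV mean, was the only one free of the selection. Summed over the 98 genes it had 88.0 CPM, between the 5 low libraries and the knockdown libraries. In it 32 of the 98 genes (32.7%) were at 1 CPM or more, 39 lay from 0.5 to below 1 CPM and 27 lay below 0.5 CPM. Against the libraries used, 93 genes were above all shEV libraries, 90 above all 5 shEV and KD_Rescued libraries and 84 below all PHF19_KD libraries. A total of 76 genes lay strictly between the low and the knockdown libraries. These are counts in 1 library of 10164112 counts, with no test.

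As a share of the PHF19_KD mean, the level in that library had a median of 40.3% over the 98 genes, with quartiles of 27.9% and 65.6%. Other genes that differed at least 4-fold in the fit, higher in PHF19_KD than in shEV and lower again after rescue, numbered 208 and had a median of 62.1% with quartiles of 42.0% and 74.9%. The 111 of these at a PHF19_KD mean no higher than that of the 98 had a median of 63.6%. Among genes outside the set that were at 1 CPM or more in all PHF19_KD libraries and had a mean in the same range, 2939 of 3258 (90.2%) were at 1 CPM or more in the library with conflicting labels. Those genes were not required to be low in shEV and KD_Rescued, and the selection on knockdown values applies to both sets, so the difference in share is a description.

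**Figure D3:**
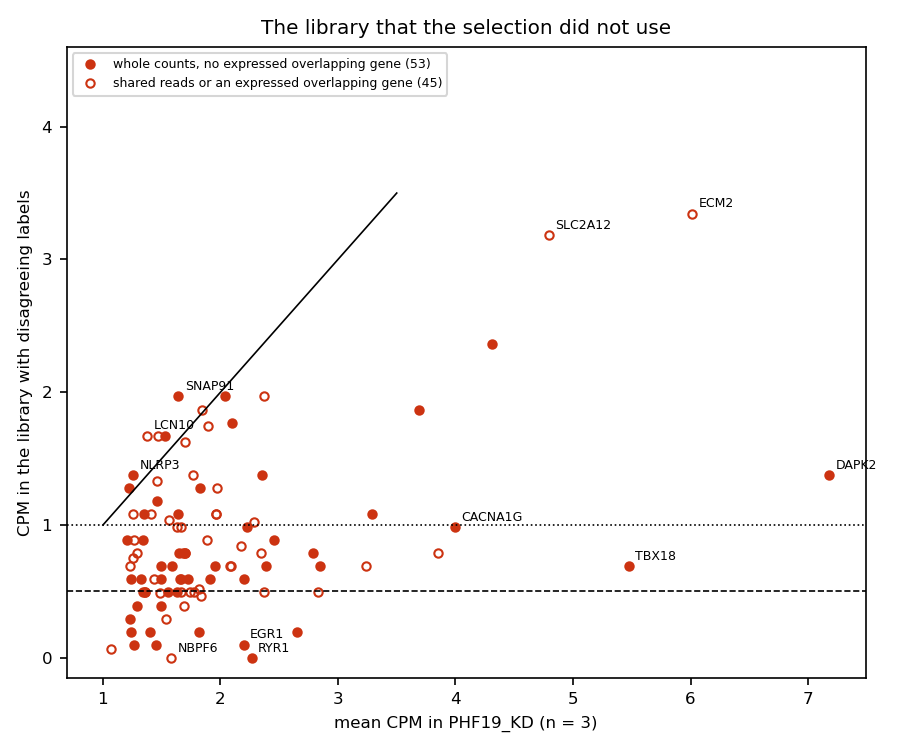
Level of each of the 98 genes in the library with conflicting labels (vertical axis, CPM) against its mean in the 3 PHF19_KD libraries (horizontal axis, CPM), with filled points for the 53 genes with whole counts and no expressed overlap and open points for the other 45. Most points lie below the line of equality, and RYR1 and NBPF6 lie at 0.

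The genes did not scale evenly in that library. It had 14 genes at or above the lowest PHF19_KD value, among them SLC29A4, SNAP91, FCER1G, LCN10, NLRP3, NME5, HIST1H2BN and SDR42E2. SNAP91 and ABHD11-AS1 exceeded all PHF19_KD libraries, and ABHD11-AS1 was at 1.67 CPM (95% interval 0.974 to 2.68) against 1.51, 1.58 and 1.31 CPM. At the other end, RYR1, EGR1, NBPF6, EFHC2, MYO15B, RP11-140I16.3, SEMA3B and CTC-297N7.7 were not above all low libraries. The genes with larger knockdown values were spread too: SLC2A12 stood at 66.4% of its PHF19_KD mean, ECM2 at 55.6%, CACNA1G at 24.6%, ADAMTS13 at 20.4%, DAPK2 at 19.2% and TBX18 at 12.6%.

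By role, the medians of this share were 68.4% for the 6 innate and surface genes, 66.4% for the 3 carriers, 47.7% for the 5 vesicle genes and 47.3% for the 14 cytoskeletal genes. They were 44.2% for the 11 matrix genes, 38.7% for the 8 transcription and chromatin genes, 30.6% for the 4 channels, 28.1% for the 6 enzymes and 26.1% for the 4 signalling genes. The ranges overlapped widely, from 21.3% to 109.5% in the innate and surface group and from 19.2% to 59.7% among signalling genes. No role group stood apart from the others in that library.

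**Figure D4:**
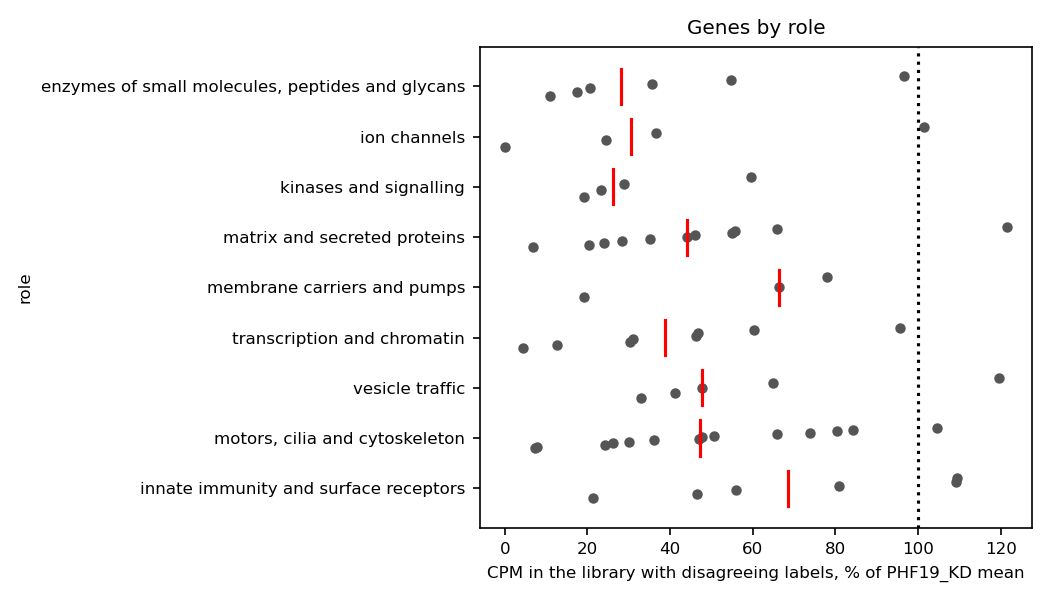
Level in the library with conflicting labels as a percentage of the PHF19_KD mean (horizontal axis) for the genes of each role (vertical axis), with a point per gene, the median in red and a dotted line at 100%. Every role group spans a wide range, and medians run from 26.1% to 68.4%.

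Promoter windows, taken from RefSeq as the 250 bases before to the 50 bases after a transcript start, were found for 67 of the 98 genes. A gene was called CpG-rich when a window had an observed to expected CpG ratio of at least 0.6 and a GC content of at least 50%. This held for 41 of the 67 (61.2%), against 13697 of all 27305 genes with a window (50.2%). With every window of a gene required to pass, an alternative chosen after seeing the data, it held for 28 (41.8%) against 42.4% of all genes, so the higher share depends on counting a gene by any of its windows. Restricted to protein-coding genes the figures were 36 of 61 (59.0%) and 10835 of 15842 (68.4%). Genes at 1 CPM or more in all 8 grouped libraries were CpG-rich in 7727 of 8693 cases (88.9%), and genes below 0.5 CPM in all 8 in 1812 of 5564 (32.6%). The set thus lay between the genes that were on throughout and those off throughout, at a share close to that of the other genes with large reversible changes, 74 of 123 (60.2%).

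**Figure D5:**
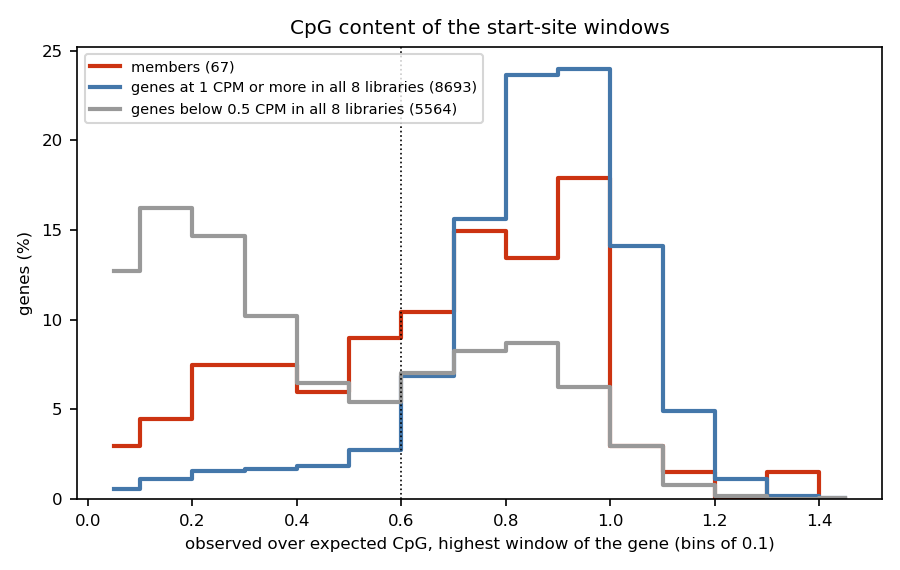
Distribution of the observed to expected CpG ratio in the promoter window with the highest ratio (horizontal axis) as a share of genes (vertical axis), for 67 of the 98 genes, 8693 genes at 1 CPM or more in all 8 grouped libraries and 5564 genes below 0.5 CPM in all 8. The 67 genes spread over both sides of the dotted line at 0.6, which most of the 8693 exceed.

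Short motifs were counted on both strands of the same windows, with no claim that a match is a site. A gene was counted if any of its windows held the motif, and the 67 genes had 105 windows. GGGCGG, the GC box, was in the windows of 51 of the 67 genes (76.1%) against 48.3% of all genes, and GCGTG in 36 (53.7%) against 40.6%. TATAAA was found in 7 (10.4% against 14.0%), TGANTCA in 10 (14.9% against 9.37%), TGACGTCA in 3 (4.48% against 2.25%) and CACGTG in 7 (10.4% against 8.78%). The interferon response element was found in 6 (8.96% against 4.38%) and CCGGAAGT in 1 (1.49% against 4.95%). Motifs rich in G and C, such as GGGCGG and GCGTG, follow base composition, and the windows of the set were not matched for it. Per window the gaps were smaller for most, except TATAAA (6.67% against 11.5%): CACGTG was in 6.67% of the windows of the set against 7.26% of all windows, TGANTCA in 9.52% against 7.71%, GCGTG in 42.9% against 36.5% and GGGCGG in 62.9% against 45.0%. A CArG box was found in the windows of EGR1 only (1.49% against 1.60% of all genes).

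Next to the genes on the chromosomes, expression moved in both directions. The 73 protein-coding genes had 146 protein-coding neighbours, counting the nearest on each side, and 90 of these were tested. In PHF19_KD 37 of them (41.1%) were called higher and 29 (32.2%) lower, against 34.9% and 34.2% of all genes, and their median log2 change was 0.06. With upper-quartile scaling the neighbours gave 49 higher (54.4%) and 21 lower (23.3%), against 42.4% and 27.6% of all genes. Some neighbours, RUNDC3B and CTSA among them, also overlap a gene of the set, so some of their reads may be shared with it. No 2 of the 98 were neighbours of each other. SGK1, a serum and glucocorticoid inducible kinase beside SLC2A12, rose from 81.4 CPM in shEV to 670 CPM with the knockdown and was at 97.3 CPM in KD_Rescued and 338 CPM in the library with conflicting labels (log2 change 3.002 ± 0.04 SE, edgeR adjusted p = 1.84e-13). KDM6B, a demethylase of the mark that PRC2 sets, lies beside DNAH2 and rose by 1.58 ± 0.11 (log2, SE, adjusted p = 6.73e-08 by edgeR). ERH beside GALNT16 and SLCO3A1 beside SV2B fell by 1.07 and 1.55 on the log2 scale (edgeR adjusted p = 1.99e-08 and 3.77e-07).

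Developmental genes are the best known targets of PRC2. The selection dropped HOX symbols, and the list of 66 such genes used here (PAX, SOX, GATA and TBX family members among them) holds no HOX gene. None of the 66 was among the 98, which are only 0.168% of all genes, so nothing is read from the lack of overlap. Of the list, 48 stayed below 0.5 CPM in all 9 libraries. Of the 17 tested, 2 were called higher in PHF19_KD and 9 lower (edgeR, adjusted p below 0.05), against 34.9% and 34.2% of all genes. GATA4 was among the higher, with a log2 change of 0.46 ± 0.12 (SE, edgeR adjusted p = 0.0043, DESeq2 adjusted p = 0.0504). IRX5 and WNT5A were lowest in the edgeR fit, with -2.86 ± 0.29 and -2.27 ± 0.44 (SE). With DESeq2, 1 of the 17 was called higher and 8 lower, against 30.5% and 31.8% of all genes. TBX18, a T-box gene, was not on that list. On a list of 31 cancer testis and germline genes, 6 were tested. MAGEA6, PAGE5 and CTAG2 were at 0 CPM in shEV and PHF19_KD, so they could not be called in that comparison. They passed the filter through KD_Rescued only, with means of 1.11, 1.54 and 2.43 CPM there. The others, MAGEA1, SYCP3 and TEX15, were called lower in PHF19_KD.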

How the data were processed

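RNA-seq of 9 libraries of MM1S cells was analysed from 1 deposited table of estimated counts per gene (58387 genes), which the authors had not scaled between libraries. The submitters' processing notes list CASAVA, RSEM and hg19 with no role for each, while the table's name refers to salmon, so the program that made the estimated counts is not settled. Its annotation, filters and strandedness were not given in the sources used here. All 9 columns of the table matched a library, so 0 were unused.

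CPM was computed from the column totals. For tests, the estimated counts were rounded and 8 libraries entered a single edgeR quasi-likelihood fit (edgeR 4.0.16, R 4.3.3, filterByExpr, TMM, Benjamini-Hochberg adjustment over 16600 genes, calls at adjusted p below 0.05), tested first on simulated data. KD_Rescued, with 2 libraries, borrows the spread of the others. The library with conflicting labels stayed out of every test. Intervals on ratios and single levels are exact binomial (Clopper-Pearson) at 95%, cover counting error only and do not account for amplification duplicates. A group with 0 counts was set to 3 counts in all as its floor.

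The genes and the gene lists were chosen with earlier results of these data known, and the role groups were made after the genes were known. The genes are named by role, except that some results are not reported here. Values by library follow a rule: at most the 30 named genes with the highest PHF19_KD means, genes on a list, the extremes in the library with conflicting labels, and genes at 0 in the low groups. MAPK10, ABCB1, NLRP3, FCER1G, CACNA1F, PLXNB3, SMIM1 and other genes given by library outside it, and the neighbours and overlapped genes named, were chosen after their values were seen. The annotations at hand (GENCODE 29 and RefSeq) are on GRCh38, so positions are given only for RefSeq windows. Same-numbered libraries had correlations of their deviations from the group means of -0.00999 to 0.0256, so the numbers were not used as pairs. Alternatives were other scalings, limits, filters and tools (DESeq2 1.42.0) and leaving out each library.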

Additional observations from a re-analysis of the deposited data

Results flagged for a closer look

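The library whose title and shRNA label disagree was used in no comparison between groups. In it 93 of the 98 genes lay above all 3 shEV libraries, which the selection had kept below 0.5 CPM, so the count partly follows from the selection. Their summed level there was 88.0 CPM, against 16.8 to 19.6 CPM in shEV and 194 to 203 CPM in PHF19_KD, and PHF19 was at 63.5 CPM. It is 1 library, its group is not known, and no test was made.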

How the results depend on the processing

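The size of the set depends on its limits. A lower limit of 0.25 or 1 CPM in place of 0.5 CPM gave 38 and 366 genes, and an upper limit of 0.5 or 2 CPM in place of 1 CPM gave 345 and 17. TMM-scaled totals gave 109 genes (95 of the 98), and leaving out 1 library at a time gave 101 to 141. In the library with conflicting labels, 32 genes were at 1 CPM or more, 71 at 0.5 CPM and 3 at 2 CPM. Counting only genes with whole counts and no expressed overlap, a choice made after seeing the data, gave 15 such genes of 53 and 24 CpG-rich genes of 39, in place of 32 of 98 and 41 of 67. Calls for KD_Rescued against shEV were 6599, and 4048 to 7539 with 1 library left out. They fell to 4253 without KD_Rescued replicate 1 and 4048 without KD_Rescued replicate 2, where the lone library is assumed to vary like the other groups. With 1 library left out, calls ranged over 10729 to 11754 for PHF19_KD against shEV (11476 with all) and 9013 to 11322 for KD_Rescued against PHF19_KD (10526 with all), and the PHF19 change over -2.20 to -2.07. DESeq2 gave 10339, 9187 and 5264 calls in PHF19_KD against shEV, KD_Rescued against PHF19_KD and KD_Rescued against shEV, no filter on low counts gave 12201, 11033 and 7389, and upper-quartile scaling gave -1.96 for PHF19. A replicate block gave 11537, 10341 and 6387 calls in the 3 comparisons and -2.11 for PHF19, with correlations of same-numbered libraries near 0. The shEV and KD_Rescued libraries were deeper than those of PHF19_KD, and a gene still had a median of only 4 counts in such a library.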

Other observations

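The same limits, applied in turn to each group and in each direction, gave counts of very unequal size. The pattern on in PHF19_KD and off in shEV and KD_Rescued held for 98 genes, and the mirror pattern, off in PHF19_KD and on in both others, for 43. Only 4 genes were on in shEV alone and 9 in KD_Rescued alone, while 17 were off in shEV alone and 7 in KD_Rescued alone.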
